A study of Mus musculus with 8 samples.

Results

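The genes described here encode the subunits of the proteasome, with the proteins that assemble and activate it. They were taken by name from an array study of mouse blood stem cells. A gene was a member if its symbol began with Psma, Psmb, Psmc, Psmd or Psme and a digit and it had a probe set of its own, which gave 45 of 19938 genes. Of these, 43 encode subunits, chaperones or activators of the proteasome, and the other 2, Psmc3ip and Psme3ip1, are named for a partner and are no subunits. Psme2b shares its probe set with Psme2 and was not analysed here.

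The G-CSF group held 4 samples from mice given granulocyte colony-stimulating factor, the cytokine that drives neutrophil production, under the skin at 125 mcg per kg 2 times a day for 36 h. The PBS group held 4 samples from mice given phosphate-buffered saline in its place for 36 h. Each sample was KSL SLAM cells, a sorted marrow population rich in hematopoietic stem cells (lineage markers, CD48 and CD41 negative, c-Kit, Sca-1 and CD150 positive), pooled from 5 to 10 mice. The sources used here give no strain, sex or age of the mice. Transcripts were measured on MoGene 1.0 ST arrays after amplification of the RNA.

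The proteasome is the large protease that degrades proteins tagged with ubiquitin. Its core is a barrel of stacked rings, of alpha subunits that gate the entrance and of beta subunits, some of which carry the cutting sites. A regulatory particle caps the barrel, with a ring of ATPases that unfolds the substrate and non-ATPase subunits that bind and remove ubiquitin. In blood cells and under interferon, the cutting subunits Psmb5, Psmb6 and Psmb7 are replaced by Psmb8, Psmb9 and Psmb10, which makes the immunoproteasome. The factors NFE2L1 and NFE2L2 can raise the genes of the standard proteasome together. Hematopoietic stem cells are known to make protein slowly and to tolerate misfolded protein poorly.

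Promoter sequences were available in RefSeq (GRCm38.p6) for 38 of the 45 genes, and 5 are shown because they carry a motif of a known regulator or belong to genes of the comparison below. Each is the 150 bases before the transcript start of the promoter table, 5′ to 3′ on the gene's strand, with the matched motif in capitals. For Psmb6 and Psma3 that start lies 33 and 5340 bases inside the gene's outermost RefSeq start, and for the other 3 it is the same base. Psmb5 (chr14:54617996-54618145, minus strand) and Psmb6 (chr11:70525207-70525356, plus strand) hold the letters TGACNNNGC, bound by NFE2L1 and NFE2L2. Psmb8 (chr17:34198045-34198194, plus strand) holds TTCNNNGAA, bound by STAT factors, which act below the G-CSF receptor. Psma3 (chr12:70974473-70974622, plus strand) and Psmc2 (chr5:21785125-21785274, plus strand) hold a CCAAT box.
Psmb5: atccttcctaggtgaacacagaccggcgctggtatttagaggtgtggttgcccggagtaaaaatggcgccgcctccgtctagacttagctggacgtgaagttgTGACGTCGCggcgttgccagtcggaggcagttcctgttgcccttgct
Psmb6: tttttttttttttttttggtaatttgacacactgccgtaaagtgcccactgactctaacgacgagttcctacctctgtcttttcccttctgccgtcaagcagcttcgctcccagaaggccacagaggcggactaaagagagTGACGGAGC
Psmb8: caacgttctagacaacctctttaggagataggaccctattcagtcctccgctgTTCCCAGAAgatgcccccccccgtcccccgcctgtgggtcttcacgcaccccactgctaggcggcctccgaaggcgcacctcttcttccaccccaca
Psma3: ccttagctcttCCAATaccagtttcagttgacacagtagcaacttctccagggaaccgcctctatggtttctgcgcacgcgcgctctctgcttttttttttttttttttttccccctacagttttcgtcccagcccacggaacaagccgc
Psmc2: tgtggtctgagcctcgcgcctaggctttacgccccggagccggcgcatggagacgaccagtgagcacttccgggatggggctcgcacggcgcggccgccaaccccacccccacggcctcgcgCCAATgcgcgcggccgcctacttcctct

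Motifs were searched on both strands from 250 bases before to 50 after each start. TGACNNNGC was found at 15.8% of proteasome genes, namely Psmb5, Psmb6, Psmc6, Psmd12, Psmd9 and Psme4, against 14.0% of all 27025 genes with a promoter. CCAAT was found at 42.1% against 41.1% of all genes, and TTCNNNGAA at 5.26%, Psmb8 and Psmd2, against 9.55%. The interferon element GAAANNGAA was found at 15.8% of members (Psmb3, Psmb4, Psmc2, Psmd4, Psmd9 and Psme1) against 9.76% of all genes. Psmb8 and Psmb9 do not hold its letters in this window. Psmb10 was not among the matches for any of these motifs, but only 38 members had a promoter to search. A gene with several promoters in the table was counted once, if any of them held the letters.

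Values are RMA intensities by the submitters' notes, on a log2 scale in all that follows. The array medians over all genes lay between 5.76 and 5.88 in the G-CSF arrays and between 5.74 and 5.89 in the PBS arrays. PBS replicate 3 stood apart, with an interquartile range of 1.68 against 2.42 to 2.80 in the other 7 arrays and correlations of 0.883 to 0.903 with them, against 0.956 to 0.977 among those 7. Of the 45 proteasome genes, 43 lie among the 9969 genes whose mean log2 intensity was above the median gene's (the brighter genes), and PBS replicate 3 held the lowest value of 43.2% of those, so the counts and medians over the members, and genes whose value it moves most, are also given without it. Of the genes behind the sort, Kit had a mean of 10.35 after G-CSF and 10.70 after PBS, while Slamf1, which encodes CD150, was lower at 6.78 after G-CSF and 6.62 after PBS. Cd48 and Itga2b (CD41), whose products the sort excludes, had 7.84 and 7.50 after G-CSF and 7.19 and 7.39 after PBS. The list of markers of the sort and of these cells had 15 measured genes and also holds Cd48, Itga2b, Cd34 and Flt3, so it is not of stem cell genes only. Over the list 0 passed the threshold, 9 had log2 fold changes above 0 and the median was 0.11, or -0.01 without PBS replicate 3.

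Other lists were summed in the same arrays, and 0 genes of the 3 that follow passed the adjusted threshold. The summed linear intensity of 18 measured neutrophil markers ran from 19397 to 47055 in the G-CSF arrays and from 8358 to 18200 in the PBS arrays, and 18 of 18 had a positive log2 fold change. That of 24 genes of S phase and mitosis ran from 6741 to 9497 in the G-CSF arrays and from 5140 to 6087 in the PBS arrays, and 24 of 24 were positive, with a median of 0.65. Of the brighter genes, 66.5% were positive. Monocyte and macrophage marker sums were 833 to 1475 in the G-CSF arrays and 720 to 1886 in the PBS arrays, so that the groups overlapped. The part of these in the proteasome values was not tested, and in such pooled samples fewer cells of a type and less RNA per cell cannot be told apart.

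After G-CSF, no proteasome gene passed the threshold in either direction, yet the log2 fold change was above 0 at 41 of the 45, and its median was 0.34. Differences were highest in the core subunit Psmb7 at 1.61 ± 0.51 SE and lowest in Psmb11 at -0.35 ± 0.19 SE. Groups that did not overlap were found at 9 genes, Psma3, Psma5, Psmb1, Psmb7, Psmc1, Psmc2, Psmc5, Psmd8 and Psmd14, all higher after G-CSF. The lowest medians were those of the inducible and thymic beta subunits, 0.18, and of the activators, 0.03.

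The counts read against all genes as follows. At an adjusted p under 0.05 (limma), 0 of 45 proteasome genes were higher, against 0.0953% of all genes, and 0 were lower, against 0.0% of all genes. The lowest adjusted p was 0.303 (Psmd8), and under 18 alternative fits the lowest member adjusted p ran from 0.0741 to 0.631, none of which called a member. At an unadjusted p under 0.05, 13 were higher, against 6.07% of all genes and 11.0% of the brighter genes, and 0 were lower, against 2.94% of all genes. The 9 genes without overlap stand against 3.37% of all genes and 6.18% of the brighter genes, and 0 members lay lower without overlap, against 2.78% of all genes. Without PBS replicate 1 the groups did not overlap at 15 members, against 6.22% of all genes, and after quantile normalization at 5, against 2.48%.

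Positive values were found at 91.1% of the proteasome genes, against 41.7% of all genes and 66.5% of the brighter genes. The median of 0.34 stands beside -0.07 over all genes and 0.13 over the brighter genes. Without PBS replicate 3, the median was 0.27 for the members, -0.02 for all genes and 0.05 for the brighter genes. In that comparison 37 members were positive, against 46.9% of all genes and 58.1% of the brighter genes. At an unadjusted p under 0.05 (limma) 12 were higher, against 5.64% of all genes and 9.58% of the brighter genes. The same 9 genes did not overlap, against 4.76% of all genes, and 0 passed the adjusted threshold as higher or lower, against 0.12% and 0.01%. After quantile normalization the median was 0.20, beside -0.01 for the brighter genes, with 32 members positive, against 44.2% of all genes and 48.5% of the brighter genes. With both changes the median was 0.17, beside -0.03, with 35 positive, against 46.1% of all genes and 46.1% of the brighter genes.

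**Figure D1:**
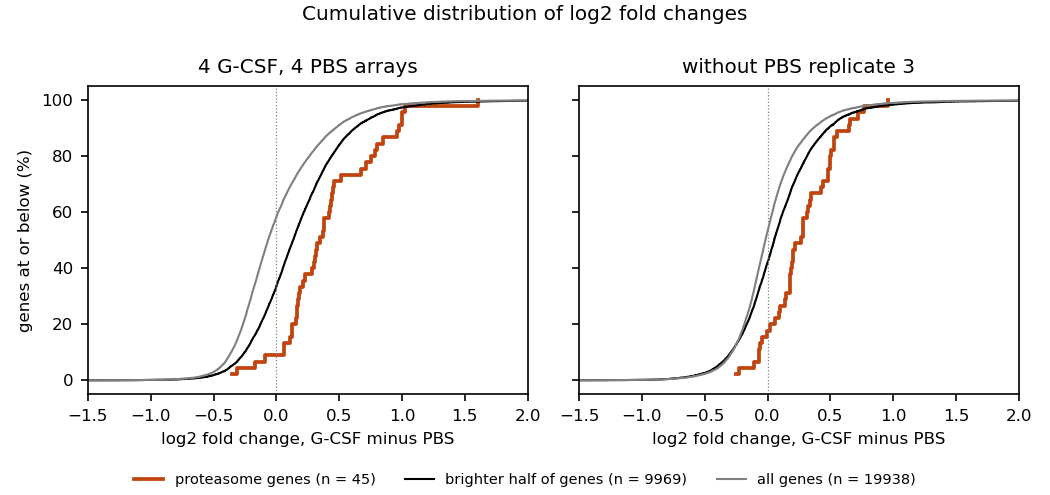
Cumulative share of genes, in percent, at or below each log2 fold change (G-CSF minus PBS, x axis) for the 45 proteasome genes, the 9969 brighter genes and all 19938 genes, with all arrays on the left and without PBS replicate 3 on the right. The line of the proteasome genes lies to the right of both others over most of its length, with medians of 0.34 on the left and 0.27 on the right.

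Levels were also summarised array by array. Over the 45 genes, G-CSF replicates 1 to 4 had median log2 intensities of 8.49, 8.64, 8.68 and 8.81, against 8.41, 8.35, 7.80 and 8.33 in the PBS arrays. The 4 G-CSF medians lay above the 4 PBS medians, and PBS replicate 3 was far below the other arrays. For the brighter genes the medians were 7.12, 7.27, 7.20 and 7.30 in the G-CSF arrays, against 7.12, 7.15, 6.75 and 7.12 in the PBS arrays. PBS replicate 3 held the lowest value of 23 of the 45 proteasome genes, beside the 43.2% of brighter genes given above, and PBS replicate 4 the lowest of 9, against 8.69%. G-CSF replicate 4 held the highest value of 17 members, against 15.9% of the brighter genes.

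**Figure D2:**
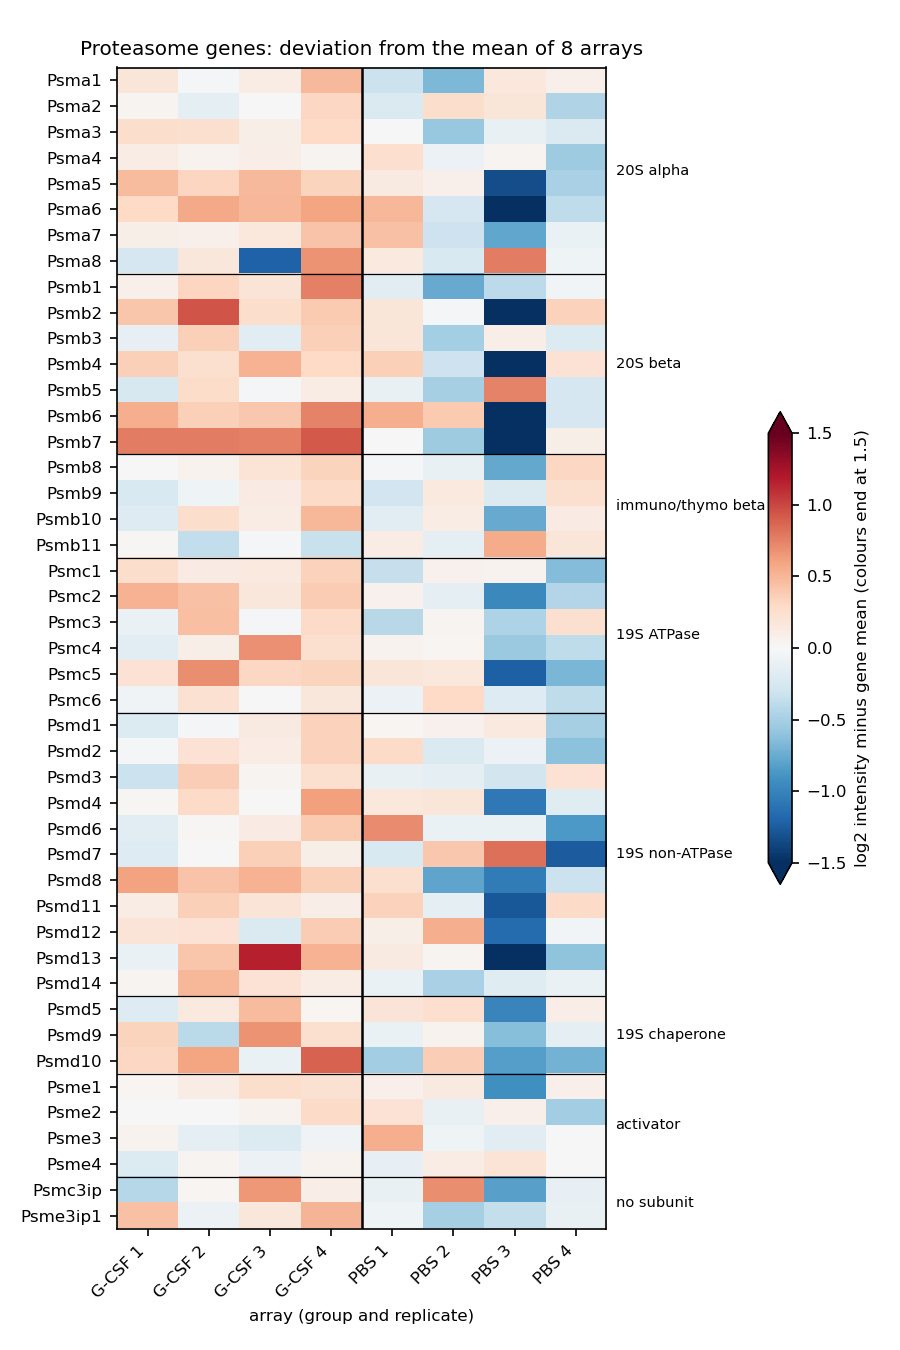
Log2 intensity of each proteasome gene (rows, by role) in each array (columns, G-CSF replicates 1 to 4 then PBS replicates 1 to 4), as the deviation from the gene's mean over the 8 arrays, with red above and blue below and colours ending at 1.5. PBS replicate 3 carries most of the deepest blue cells, and it holds the lowest value of 23 of the 45 genes.

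The SD over 4 arrays had a median over the proteasome genes of 0.21 after G-CSF and 0.44 after PBS. It was smaller after G-CSF at 39 of 45 genes, against 73.6% of all genes and 74.4% of the brighter genes. With the 3 PBS arrays other than replicate 3 the PBS median was 0.33. Then 31 of 45 genes had the smaller SD after G-CSF, against 47.4% of all genes and 56.4% of the brighter genes. That sets an SD over 4 arrays against an SD over 3. Psma4, an alpha subunit singled out after its values were seen, had an SD of 0.03 after G-CSF and 0.33 after PBS. No test was made of the spreads.

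In the alpha ring, which forms the outer gate of the barrel, 7 of 8 genes were positive, with a median of 0.38, and 0.34 without PBS replicate 3. Psma5, an alpha subunit, had log2 intensities of 9.75, 9.60, 9.77 and 9.61 in G-CSF replicates 1 to 4, against 9.41, 9.36, 7.95 and 8.79 in PBS replicates 1 to 4. Its groups did not overlap, and PBS replicate 3 was the lowest array. The log2 fold change was 0.80 ± 0.29 SE (limma adjusted p = 0.469), and 0.49 ± 0.18 SE without that array. The other probe set of Psma5 had 0.82 ± 0.51 SE, with an SD of 1.18 over the PBS arrays.

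Psma3, another alpha subunit, had 10.08, 10.05, 9.90 and 10.11 in the G-CSF arrays, against 9.81, 9.24, 9.70 and 9.60 in the PBS arrays. Here too the groups did not overlap, and PBS replicate 2 was the lowest. Its log2 fold change was 0.45 ± 0.17 SE, and 0.48 ± 0.16 SE without PBS replicate 3. The other 2 probe sets of Psma3 had fold changes of 0.44 and 0.43 on the log2 scale.

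Psma6 had 9.68, 9.96, 9.88 and 9.98 in the G-CSF arrays, against 9.89, 9.14, 7.55 and 9.01 in the PBS arrays. PBS replicate 1 lay within the G-CSF range, so the groups overlapped, and the log2 fold change of 0.98 ± 0.39 SE was 0.53 ± 0.21 SE without PBS replicate 3. Psma8, the alpha subunit of the testis, was the dimmest of the ring and had its lowest fold change, with 5.57, 5.99, 4.61 and 6.50 in the G-CSF arrays, against 5.97, 5.59, 6.59 and 5.76 in the PBS arrays. Its log2 fold change was -0.31 ± 0.37 SE, and 0.04 without G-CSF replicate 3. The other 4 alpha genes, Psma1, Psma2, Psma4 and Psma7, had log2 fold changes between 0.10 and 0.38, and their groups overlapped.

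In the constitutive beta ring all 7 genes were positive, with a median of 0.71 that was 0.32 without PBS replicate 3. Psmb7, which carries the trypsin-like site, had 9.33, 9.32, 9.31 and 9.48 in the G-CSF arrays, against 8.55, 8.03, 5.80 and 8.64 in the PBS arrays. The G-CSF arrays were nearly level, all 4 PBS arrays lay below them, and PBS replicate 3 lay far below the rest. It averaged 9.36 ± 0.08 in the G-CSF arrays and 7.75 ± 1.33 in the PBS arrays (SD, n = 4 each). The linear fold was 3.05 (limma adjusted p = 0.388), and without PBS replicate 3 the log2 fold change was 0.96 ± 0.17 SE, or 1.94-fold (limma adjusted p = 0.111, within a range of 0.111 to 0.809 over 18 alternative fits).

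Psmb1, a beta subunit without a cutting site, had 8.59, 8.83, 8.71 and 9.27 in the G-CSF arrays, against 8.34, 7.76, 8.12 and 8.47 in the PBS arrays. The groups did not overlap, by a small margin, and PBS replicate 3 was in the middle of its group. Its log2 fold change was 0.68 ± 0.21 SE (limma adjusted p = 0.387), and 0.66 ± 0.22 SE without PBS replicate 3.

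Psmb2, also without a cutting site, had 9.56, 10.08, 9.41 and 9.53 in the G-CSF arrays, against 9.32, 9.11, 6.64 and 9.49 in the PBS arrays. Most of its difference lay in PBS replicate 3, as the log2 fold change of 1.00 ± 0.53 SE was 0.34 ± 0.19 SE without it. Psmb6, which carries the caspase-like site, had 10.00, 9.81, 9.85 and 10.19 in the G-CSF arrays, against 10.00, 9.84, 6.72 and 9.20 in the PBS arrays. It showed the same pattern, with 1.02 ± 0.58 SE and, without PBS replicate 3, 0.28 ± 0.21 SE. Psmb4, at 0.71 ± 0.38 SE, was at 0.27 ± 0.18 SE without that array.

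Psmb5, the chymotrypsin-like subunit and the target of bortezomib, had 9.18, 9.70, 9.40 and 9.53 in the G-CSF arrays, against 9.31, 8.92, 10.17 and 9.17 in the PBS arrays. PBS replicate 3 was here the highest of all 8 arrays, the reverse of its place for Psmb6 and Psmb7. The log2 fold change was 0.06 ± 0.26 SE, and 0.32 ± 0.17 SE without PBS replicate 3. Psmb3 had 0.21 ± 0.21 SE with the kept probe set and 1.21 ± 0.80 SE with its other one, so its probe sets differed in size though not in sign.

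**Figure D3:**
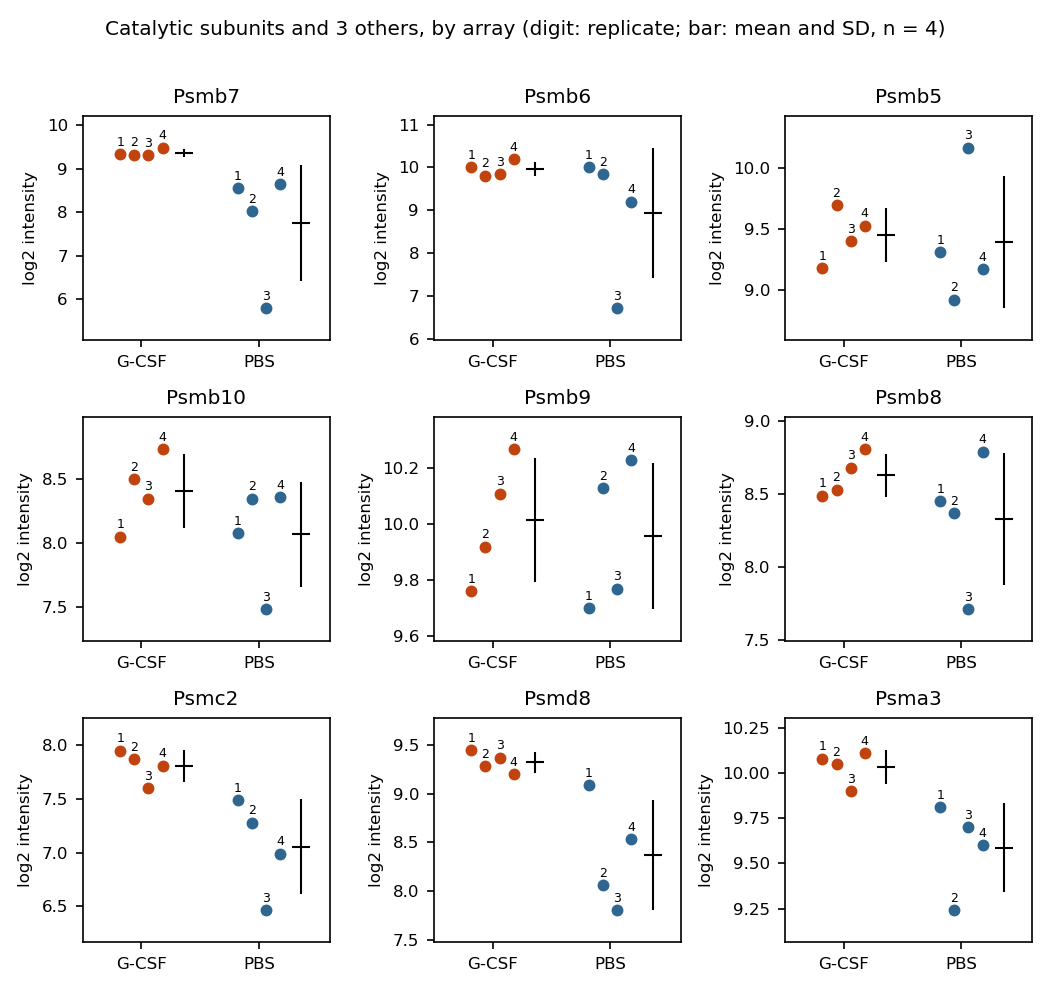
Log2 intensity (y axis, a scale of its own in each panel) of the constitutive cutting subunits (top), their immunoproteasome counterparts (middle) and Psmc2, Psmd8 and Psma3 (bottom) in the G-CSF (left, orange) and PBS (right, blue) arrays, each point an array with its replicate number and each bar the mean and SD of 4 arrays. PBS replicate 3 is lowest for Psmb7 at 5.80 and Psmb6 at 6.72 and highest for Psmb5 at 10.17.

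The immunoproteasome subunits overlapped between the groups. Psmb8 had 8.49, 8.53, 8.68 and 8.81 in the G-CSF arrays, against 8.45, 8.37, 7.71 and 8.79 in the PBS arrays. Psmb9 had 9.76, 9.92, 10.11 and 10.27 in the G-CSF arrays, against 9.70, 10.13, 9.77 and 10.23 in the PBS arrays. Psmb10 had 8.05, 8.50, 8.35 and 8.74 in the G-CSF arrays, against 8.08, 8.35, 7.48 and 8.36 in the PBS arrays. For Psmb9 the arrays of both groups spanned nearly the same range, while for Psmb8 and Psmb10 PBS replicate 3 lay below all the other arrays. The log2 fold changes were 0.30 ± 0.23 SE for Psmb8, 0.06 ± 0.19 SE for Psmb9 and 0.34 ± 0.24 SE for Psmb10, and without PBS replicate 3 they were 0.09 ± 0.16 SE, -0.00 ± 0.18 SE and 0.15 ± 0.18 SE, in the same order. Psmb11, the thymus-specific subunit, was dim, with 4.98, 4.59, 4.93 and 4.63 in the G-CSF arrays, against 5.07, 4.81, 5.52 and 5.14 in the PBS arrays. Its groups overlapped too.

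Each inducible subunit was set against the constitutive one whose place it takes, as a difference of log2 values within each array, which compares changes and not levels. Psmb10 minus Psmb7 was -1.28, -0.83, -0.96 and -0.74 in the G-CSF arrays, against -0.47, 0.32, 1.68 and -0.28 in the PBS arrays. The groups did not overlap, with PBS replicate 3 the farthest, and the means differed by -1.26 ± 0.50 SE. The exact 2-sided permutation p was 0.0286, the smallest that 4 against 4 arrays allow. After adjustment over the 3 pairs it was 0.0857, the lowest that 1 pair alone could reach. With these sample sizes 1 pair alone could thus not pass the threshold, and the miss says nothing about the difference. Without PBS replicate 3 the difference was -0.81 ± 0.27 SE, again without overlap.

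Psmb9 minus Psmb6 was -0.24, 0.11, 0.26 and 0.08 in the G-CSF arrays, against -0.30, 0.30, 3.05 and 1.02 in the PBS arrays. These overlapped, with a difference of -0.96 ± 0.74 SE (exact permutation p = 0.257, adjusted 0.386), and -0.29 ± 0.40 SE without PBS replicate 3. Psmb8 minus Psmb5 was -0.69, -1.17, -0.72 and -0.72 in the G-CSF arrays, against -0.86, -0.55, -2.45 and -0.38 in the PBS arrays. This pair overlapped too, and its difference of 0.24 ± 0.49 SE (exact permutation p = 0.857, adjusted 0.857) turned to -0.23 ± 0.18 SE without PBS replicate 3.

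The 6 ATPases of the regulatory particle, which form the ring that unfolds substrates, were all positive, with a median of 0.43, and of 0.41 without PBS replicate 3. Psmc2 had 7.95, 7.87, 7.60 and 7.81 in the G-CSF arrays, against 7.49, 7.28, 6.46 and 6.99 in the PBS arrays. Its groups did not overlap and PBS replicate 3 was the lowest. The log2 fold change was 0.75 ± 0.23 SE (limma adjusted p = 0.357), and 0.55 ± 0.16 SE without that array.

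Psmc5 had 9.05, 9.53, 9.15 and 9.17 in the G-CSF arrays, against 9.02, 8.99, 7.61 and 8.15 in the PBS arrays. The gap between its groups was narrow, since PBS replicate 1 lay just under G-CSF replicate 1, and the log2 fold change of 0.78 ± 0.30 SE was 0.50 ± 0.23 SE without PBS replicate 3. Psmc1 had 8.81, 8.67, 8.70 and 8.90 in the G-CSF arrays, against 8.21, 8.62, 8.60 and 7.90 in the PBS arrays. PBS replicate 4 was the lowest there, and the log2 fold change was 0.44 ± 0.20 SE with the kept probe set, 0.53 ± 0.18 SE for it without PBS replicate 3, and 0.78 ± 0.27 SE with the other probe set. Psmc6, with the lowest fold change of the ring, had 7.75, 8.03, 7.80 and 7.97 in the G-CSF arrays, against 7.71, 8.10, 7.60 and 7.42 in the PBS arrays. Its log2 fold change was 0.18 ± 0.19 SE, and the groups of Psmc3, Psmc4 and Psmc6 overlapped.

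The 11 non-ATPase subunits were all positive with all arrays, with a median of 0.32, and 10 were positive without PBS replicate 3, with a median of 0.19. Psmd8, a lid subunit, had 9.45, 9.28, 9.37 and 9.20 in the G-CSF arrays, against 9.09, 8.06, 7.80 and 8.53 in the PBS arrays. The groups did not overlap, and the G-CSF arrays kept within a narrow range while the PBS arrays were widely spread. It averaged 9.33 ± 0.11 in the G-CSF arrays and 8.37 ± 0.57 in the PBS arrays (SD, n = 4 each). The log2 fold change was 0.96 ± 0.26 SE (limma adjusted p = 0.303) and 0.77 ± 0.22 SE without PBS replicate 3.

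Psmd14, the lid enzyme that removes ubiquitin from the substrate, had 8.47, 8.93, 8.64 and 8.54 in the G-CSF arrays, against 8.33, 7.94, 8.24 and 8.33 in the PBS arrays. The groups did not overlap and PBS replicate 3 lay inside its group. The log2 fold change was 0.44 ± 0.18 SE, and 0.45 ± 0.17 SE without that array.

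Psmd13 had 7.26, 7.78, 8.53 and 7.89 in the G-CSF arrays, against 7.50, 7.40, 5.79 and 6.76 in the PBS arrays. Its groups overlapped at G-CSF replicate 1, and the log2 fold change was 1.00 ± 0.38 SE, or 0.65 ± 0.29 SE without PBS replicate 3. Psmd1, a scaffold of the base, had 8.47, 8.64, 8.81 and 9.01 in the G-CSF arrays, against 8.70, 8.74, 8.82 and 8.17 in the PBS arrays. These overlapped, and its 0.12 ± 0.20 SE was the lowest log2 fold change of the group. Psmd4, a ubiquitin receptor, Psmd11 and Psmd12 had log2 fold changes of 0.46, 0.38 and 0.28 with all arrays and 0.18, 0.02 and -0.06 without PBS replicate 3, the array in which each was lowest. Psmd7 went the other way, as PBS replicate 3 was its highest array at 9.20. Its log2 fold change was 0.13 ± 0.37 SE with all arrays and 0.42 ± 0.34 SE without PBS replicate 3.

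Among the chaperones that assemble the base, Psmd10 (gankyrin) had 7.37, 7.64, 6.96 and 7.94 in the G-CSF arrays, against 6.53, 7.42, 6.23 and 6.34 in the PBS arrays. PBS replicate 2 lay within the G-CSF range, so the groups overlapped, with a log2 fold change of 0.85 ± 0.29 SE and 0.72 ± 0.30 SE without PBS replicate 3. Psmd9 had 6.92, 6.19, 7.27 and 6.83 in the G-CSF arrays, against 6.49, 6.64, 5.95 and 6.44 in the PBS arrays, and a log2 fold change of 0.42 ± 0.25 SE, or 0.28 ± 0.23 SE without PBS replicate 3. Psmd5 had 6.32, 6.66, 6.99 and 6.54 in the G-CSF arrays, against 6.71, 6.77, 5.52 and 6.61 in the PBS arrays. Both overlapped, and PBS replicate 3 was the lowest array of each. The log2 fold change of Psmd5 was 0.23 ± 0.28 SE, and -0.07 ± 0.17 SE without that array.

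The activators replace or join the regulatory particle at the ends of the barrel. Psme1 and Psme2 form the interferon-inducible PA28 ring. Psme1 had 10.08, 10.16, 10.32 and 10.28 in the G-CSF arrays, against 10.13, 10.19, 9.13 and 10.13 in the PBS arrays. Apart from PBS replicate 3 the groups lay close together, and the log2 fold change of 0.32 ± 0.24 SE was 0.06 ± 0.13 SE without it. Psme2 had 8.09, 8.10, 8.15 and 8.38 in the G-CSF arrays, against 8.32, 7.99, 8.18 and 7.58 in the PBS arrays, and 0.16 ± 0.19 SE.

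Psme3, the nuclear activator, had 9.14, 8.96, 8.89 and 9.04 in the G-CSF arrays, against 9.64, 9.03, 8.93 and 9.10 in the PBS arrays. Psme4, the PA200 activator, had 7.83, 8.08, 7.95 and 8.09 in the G-CSF arrays, against 7.91, 8.15, 8.24 and 8.03 in the PBS arrays. Both overlapped and had slightly negative log2 fold changes, -0.17 ± 0.19 SE for Psme3 and -0.09 ± 0.16 SE for Psme4, or -0.25 and -0.04 without PBS replicate 3. With Psma8 and Psmb11 they were the 4 members below 0. Neither of the 2 genes that are no subunits passed the threshold. Psmc3ip, a meiotic recombination factor, had 0.18 ± 0.32 SE, or -0.07 without PBS replicate 3, and Psme3ip1, a partner of the nuclear activator, had 0.51 ± 0.19 SE.

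**Figure D4:**
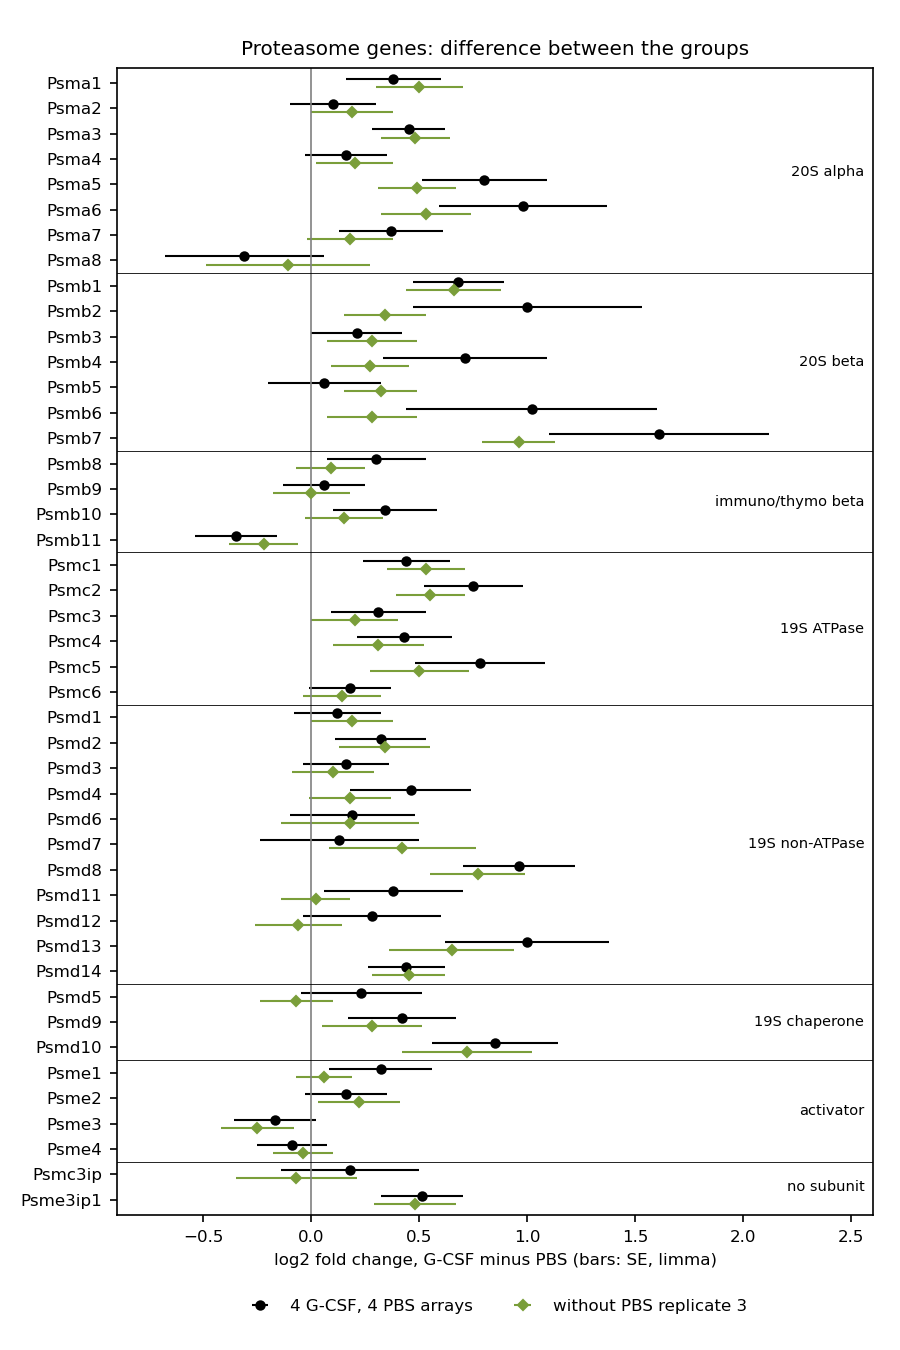
Log2 fold change (x axis, G-CSF minus PBS) of each proteasome gene by role, with SE bars from limma, for all arrays (black circles) and without PBS replicate 3 (green diamonds). Psmb7 had the highest value in both, at 1.61 and 0.96, and the immunoproteasome subunits Psmb8, Psmb9 and Psmb10 lay between 0.06 and 0.34 with all arrays.

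Proteins that build or regulate the proteasome without being part of it gave 20 measured genes of 26 listed. None passed in either direction, 13 were positive, against 66.5% of the brighter genes, and the median was 0.21, or 0.15 without PBS replicate 3. Pomp, the chaperone that matures the core, had 1.22 ± 0.43 SE (limma adjusted p = 0.454), and 0.72 ± 0.23 SE without PBS replicate 3. The transcription factor Nfe2l2 had 0.80 ± 0.32 SE and its relative Nfe2l1 had -0.04 ± 0.16 SE, or 0.51 and -0.14 without that array. Psmf1, an inhibitor of the core, had 0.50 ± 0.31 SE, or 0.26 without it, while the ubiquitin ligase Ube3c, which works at the proteasome, had -0.48 ± 0.22 SE, or -0.62 without it.

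Of the ubiquitin and VCP list 7 of 13 genes were measured, 0 passed and the median was 0.17, or 0.10 without PBS replicate 3. Vcp, the ATPase that extracts ubiquitin-tagged proteins, had 0.39 ± 0.24 SE, its cofactor Nsfl1c had 0.41 ± 0.39 SE and Faf2 had 0.28 ± 0.19 SE. Without PBS replicate 3 these log2 fold changes were 0.14 for Vcp, -0.07 for Nsfl1c and 0.41 for Faf2. Class I antigen processing, which uses the peptides of the immunoproteasome, gave 10 measured genes with a median of 0.06, or -0.02 without PBS replicate 3, and 0 past the threshold. The peptide transporter Tap1 had 0.38 ± 0.32 SE, and -0.01 ± 0.13 SE without PBS replicate 3. B2m, the light chain of class I molecules, had -0.09 ± 0.16 SE, or -0.03 without that array, and the chaperone Calr had 0.61 ± 0.21 SE without overlap of the groups, or 0.43 without it. The peptide trimmer Erap1 had 0.36, or 0.23 without it, and Nlrc5, which activates class I genes, had -0.29, or -0.22 without it.

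Genes that carry the interferon signal to the immunoproteasome were all positive, 8 of 8, with a median of 0.49, or 0.39 without PBS replicate 3, and 0 past the threshold. All 8 lie among the brighter genes, of which 66.5% were positive, with a median of 0.13. The receptor chains Ifngr2, Ifnar2 and Ifnar1 had 1.37 ± 0.39 SE, 0.96 ± 0.30 SE and 0.49 ± 0.16 SE (limma adjusted p = 0.331, 0.387 and 0.393). Each was higher without overlap of the groups, against 6.18% of the brighter genes. Without PBS replicate 3 they had 0.95, 0.66 and 0.45. Irf1, the factor that induces Psmb8 and Psmb9, had 0.50 ± 0.36 SE, and 0.06 ± 0.17 SE without PBS replicate 3.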

How the data were processed

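Sorted marrow cells of 4 G-CSF and 4 PBS pools were measured on 1-colour arrays, and the authors deposited 1 linear intensity per probe set and array. RMA is named per the submitters' processing notes, while the sources used here name no software, version or option for it. As the interquartile ranges given above differ, the values cannot be taken as normalized to equal spread across the arrays. The intensities ran from 2.15 to 16162.54 and were turned to log2. No detection calls were used. Precision is limited by having 4 arrays a group.

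The platform annotation gave 1 gene symbol for 21789 of 35556 probe sets, several for 1621 and none for 12146. The probe set with the highest mean stood for a gene, giving 19938 genes. All 45 proteasome genes were matched in RefSeq by gene ID.

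G-CSF and PBS were compared over all genes with limma 3.58.1 (R 4.3.3, lmFit and eBayes, 2-sided, Benjamini-Hochberg, adjusted p under 0.05, no dim filter). SE are limma's, except for pairs of subunits, where they come from the variances of the within-array differences in each group. The p-values of the pairs are from exact permutation tests (scipy 1.17.1). In simulated arrays of 19938 genes, 39 of 67 genes changed by 1 on the log2 scale were recovered and 67 of 67 changed by 2, with 8 false calls. Each simulated gene had the same SD in all arrays. An array that stands apart, as PBS replicate 3 does, was not simulated, so recovery in the real arrays can differ.

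The members and lists were chosen with earlier results of these data known. Genes given array by array were the up to 3 with the lowest p and the 1 with the lowest fold change in each role group, with Psmb5 to Psmb10 and Psme1 to Psme4. Up to 3 genes with the lowest p of each related list were named, with Nfe2l1, Nfe2l2, Pomp, Psmf1, Irf1, Tap1 and B2m. Psma4, Psmb3, Psmb4, Psmd4, Psmd7, Psmd11 and Psmd12 were named after their values were seen. Whether same-numbered arrays were paired is not given in the labels. Their deviations from the group means correlated at -0.025, 0.056, 0.062 and 0.135, so the numbers were not taken as pairs.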

Additional observations from a re-analysis of the deposited data

Results flagged for a closer look

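Among 90 groups of 4 arrays (45 genes in each of 2 groups), 4 held an array whose gap to its nearest neighbour was unusually large for the group's range, where chance gives about 1 in 20. In 3 of them the array was PBS replicate 3, with Psmb2 at 6.64, Psmd5 at 5.52 and Psme1 at 9.13. The other was the highest G-CSF array of Psmb7, replicate 4 at 9.48, in a group whose other 3 values were 9.31 to 9.33.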

How the results depend on the processing

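No member passed an adjusted p under 0.05 in any of 18 alternative fits, and none passed 0.10 or 0.25 in the reported fit. With array weights Psmb7, Psmd8 and Psmc2 were under 0.25, the lowest at 0.178 (Psmb7, limma), and without PBS replicate 1 the lowest was 0.0741, for Psmd8. The lowest limma adjusted p was also under 0.25 without PBS replicate 3 (0.111, Psmb7) and without PBS replicate 2 (0.204, Psmd10). In quantile-normalized arrays without PBS replicate 3 it was 0.184 (Psmb7). These fits used other moderation, array weights, other normalizations, filters, probe sets, an offset of 32 before the log, the replicate block and each array left out. The median stayed between 0.17 and 0.40, with 0.20 after quantile normalization and 0.17 where that was run without PBS replicate 3. It was 0.27 to 0.40 with 1 array left out. The count at an unadjusted p was 7 in quantile-normalized arrays without PBS replicate 3, against 4.6% of all genes and 6.68% of the brighter genes. That count was 9 to 16 with 1 array left out, against 4.05 to 7.48% of all genes. Groups did not overlap at 5 members after quantile normalization, against 2.48% of all genes, and at 9 to 15 with 1 array left out, against 4.06 to 6.22%. The cause of these shifts was not tested. For groups without overlap, the share of the brighter genes was taken for the reported fit only, at 6.18%. With the replicate block 0 members passed, 12 were higher at an unadjusted p, against 6.67% of all genes, and the median was 0.34. The block left Psmb8 minus Psmb5 at 0.24, Psmb9 minus Psmb6 at -0.96 and Psmb10 minus Psmb7 at -1.26, with adjusted p = 0.875, 0.375 and 0.375 by exact sign changes. The smallest p of that test is 0.125, so no pair could pass with it.

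With 1 array left out, the pair differences ran from -0.23 to 0.46 for Psmb8 minus Psmb5, -1.40 to -0.29 for Psmb9 minus Psmb6 and -1.52 to -0.81 for Psmb10 minus Psmb7. The smallest p with 3 against 4 arrays is 0.0571, so no pair could pass with 1 array left out. Psmb8 minus Psmb5 was also -0.23 in quantile-normalized arrays without PBS replicate 3. Of 808 member values under the alternatives, 28 changed sign, at 15 members, none of them past the threshold. After quantile normalization Psma2 was -0.06, Psmb5 -0.09, Psmb9 -0.13, Psmc6 -0.01, Psmd1 -0.02, Psmd3 -0.03, Psmd7 -0.03 and Psme2 -0.01. In quantile-normalized arrays without PBS replicate 3, Psmb9 was -0.11, Psmc3ip -0.16, Psmd11 -0.05, Psmd12 -0.14, Psmd5 -0.16, Psme1 -0.05, Nsfl1c -0.14, Tap1 -0.09 and Irf1 -0.02. With 1 array left out, values ran from -0.03 to 0.21 for Psma2, -0.59 to 0.04 for Psma8, -0.09 to 0.32 for Psmb5, -0.03 to 0.15 for Psmb9, -0.07 to 0.44 for Psmc3ip, -0.02 to 0.21 for Psmd1, -0.06 to 0.51 for Psmd12, -0.07 to 0.35 for Psmd5, -0.07 to 0.45 for Psmd6, -0.27 to 0.42 for Psmd7, -0.14 to 0.01 for Nfe2l1, -0.07 to 0.60 for Nsfl1c and -0.01 to 0.53 for Tap1.

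With promoters from 100 bases before to 50 after the start, TGACNNNGC was at 10.5% of members against 8.26% of all genes, CCAAT at 34.2% against 26.3%, TTCNNNGAA at 5.26% against 4.55% and GAAANNGAA at 10.5% against 4.69%. TTCNNNGAA was thus below the share of all genes in the longer window and above it in the shorter. Psma8 and Psmb11 were the members outside the brighter genes, with mean log2 intensities at percentiles 49.7 and 30.7 of all genes. As no detection calls were used, whether they were expressed was not tested.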
